A study of Homo sapiens with 4 samples.

Results

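The genes described here make cholesterol or answer to its level. They comprise 34 genes, ordered by role: 18 enzymes from acetyl-CoA to cholesterol, 5 genes of sterol sensing, 6 genes of sterol transport, oxysterol synthesis and the liver X receptor (LXR) pathway, and 5 genes of fatty acid synthesis and desaturation. Each gene was read from the probe set that carries its symbol alone in the platform annotation, or from the brightest where there were several. Such a probe set was found for 31 of the 34 genes. FDFT1, HSD17B7 and NR1H2 had none, and HSD17B7 shares its probe set with the pseudogene HSD17B7P2. ABCA1 lay below the intensity filter (the lowest 25% of 18417 genes, under 6.78 on the log2 scale), which left 30 genes among 13813.

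The study lowered ZFX, a zinc finger transcription factor, in DAOY, an established human medulloblastoma cell line. All 4 samples were DAOY cells exposed to lentivirus for 16 to 24 hours, rested for 48 hours, selected with puromycin at 2 ug/mL for about 48 hours and lysed for RNA, of which 250 ng was labelled. In 3 of them (genotype ZFX KD) the virus carried the anti-ZFX shRNA H2, H3 or H4, and in 1 (genotype Ctrl) a scrambled non-targeting shRNA. Each was read on 1 array, the labels name no repeat transductions, and the 4 samples share 1 cell line, so p-values measure only the spread between these arrays. Values are RMA intensities on a linear scale, differences are log2, hairpin array minus scrambled array, and the scrambled array is also called the control.

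The ZFX intensity was 745, 750 and 996 with H2, H3 and H4 and 1430 for the control, so that 52.1%, 52.4% and 69.6% of it remained. H4 thus had the least reduced ZFX of the 3 hairpins. Of 13 medulloblastoma and neural progenitor markers 11 were above the filter, a share near that of all genes (13813 of 18417), so the count says little of cell type. ATOH1, with a mean log2 intensity of 6.82, was only just above the filter, and GLI1 and NES, which encodes nestin, lay below it on average. Of the hepatocyte, lymphocyte and erythroid markers with a probe set, only APOA1 and SERPINA1 were above it, and SERPINA1 gave 276, 524 and 359 with H2, H3 and H4 against 767 for the control. In bulk RNA of this kind, fewer cells of a type and less RNA per cell cannot be told apart.

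As background, cells build cholesterol from acetyl-CoA through mevalonate, squalene and lanosterol, and most genes of this route carry sites for the transcription factor SREBP-2, encoded by SREBF2. When sterol in the endoplasmic reticulum is plentiful, INSIG1 and INSIG2 hold the SREBP escort SCAP there and the factor stays inactive. When sterol is scarce, SCAP carries SREBP to the Golgi, where it is cut and released. Oxysterols such as 25-hydroxycholesterol, made by CH25H, favour retention by INSIG and also act as ligands of LXR, which turns on cholesterol efflux.

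Promoter windows from RefSeq (GRCh38.p14, 250 bases before to 50 after a start site) were found for 30 of the 34 genes. SREBP commonly works beside the factors NF-Y and Sp1. The NF-Y box CCAAT, on either strand, was in the window of 21 of these 30 genes (70.0%), against 39.7% of all 27305 genes with a window and 42.2% of the 10919 of these among the genes tested. The Sp1 box GGGCGG was in 29 of 30 (96.7%), against 48.3% and 75.3%. The exact sterol regulatory element TCACNCCAC, on either strand, was in the window of 1 gene, SREBF2, at position -133 from its start, and in 1.4% of all genes. The E-box CACGTG was found in 5 of 30 genes (16.7%), against 8.8% of all genes and 12.4% of the genes tested. The hexamer AGGCCT, the core reported for ZFX, was found in 5 of 30 genes (DHCR7, FADS2, LSS, MVD and NR1H3). This share of 16.7% is near the 13.0% of all genes and the 14.3% of the genes tested. The LXR direct repeat (AGGTCA, any 4 bases, AGGTCA) was in 0 of the 30 genes and in 7 of all genes. Each motif was counted on both strands whether or not it overlapped another, a match is only a description, and no match says only that these letters are not in this window.

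The upstream 250 bases of 5 promoters are shown as examples from the genes described below. CYP51A1 and FADS1, which also stood highest with H2 and lowest with H4, held no NF-Y box in their windows and are not shown. HMGCS1, LSS and SCD stood highest with H2 and lowest with H4, SREBF2 encodes the factor itself, and INSIG1 stood lower with every hairpin. Capitals mark TCACNCCAC in SREBF2 and the NF-Y box, CCAAT or its reverse complement ATTGG, in HMGCS1, LSS, SCD and INSIG1. Each is read 5′ to 3′ on the gene's strand. The windows are chr22:41832855-41833104 (plus strand) for SREBF2, chr5:43313413-43313662 (minus, the further upstream of its windows) for HMGCS1, chr21:46228775-46229024 (minus) for LSS, chr10:100346983-100347232 (plus) for SCD and chr7:155297628-155297877 (plus) for INSIG1.
SREBF2: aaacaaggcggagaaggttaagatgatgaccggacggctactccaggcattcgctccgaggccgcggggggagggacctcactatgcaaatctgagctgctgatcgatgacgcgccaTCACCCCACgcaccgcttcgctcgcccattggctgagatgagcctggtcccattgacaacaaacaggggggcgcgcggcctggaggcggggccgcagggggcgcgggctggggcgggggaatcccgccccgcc
HMGCS1: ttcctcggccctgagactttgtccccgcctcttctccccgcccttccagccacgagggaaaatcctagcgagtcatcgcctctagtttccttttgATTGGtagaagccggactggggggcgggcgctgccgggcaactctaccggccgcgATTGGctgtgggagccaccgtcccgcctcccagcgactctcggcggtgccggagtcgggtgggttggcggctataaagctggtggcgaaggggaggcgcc
LSS: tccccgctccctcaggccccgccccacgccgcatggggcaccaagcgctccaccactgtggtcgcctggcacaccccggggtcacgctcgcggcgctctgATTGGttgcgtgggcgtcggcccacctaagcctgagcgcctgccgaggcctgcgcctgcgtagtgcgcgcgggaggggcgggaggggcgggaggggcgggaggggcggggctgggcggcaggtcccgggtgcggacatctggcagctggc
SCD: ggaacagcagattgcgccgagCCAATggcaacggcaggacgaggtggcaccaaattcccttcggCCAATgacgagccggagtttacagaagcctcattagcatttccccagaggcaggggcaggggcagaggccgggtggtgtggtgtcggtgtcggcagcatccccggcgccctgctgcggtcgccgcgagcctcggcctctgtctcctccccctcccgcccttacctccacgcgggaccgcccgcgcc
INSIG1: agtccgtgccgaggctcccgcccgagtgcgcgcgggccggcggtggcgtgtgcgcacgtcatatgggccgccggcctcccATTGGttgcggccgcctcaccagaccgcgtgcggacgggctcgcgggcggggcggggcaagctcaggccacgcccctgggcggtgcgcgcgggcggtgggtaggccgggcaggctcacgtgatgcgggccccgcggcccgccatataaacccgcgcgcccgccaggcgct

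The sterol genes stood at different levels on the 3 hairpin arrays. Over the 16 synthesis enzymes above the filter the median log2 difference from the control stood at 0.081 for H2, -0.12 for H3 and -0.29 for H4, beside medians of -0.030, -0.021 and -0.046 over all genes. With H4 15 of the 16 enzymes were below the scrambled array and with H3 14, whereas with H2 10 were above it. Over all 30 genes the medians were 0.014, -0.12 and -0.24. Below the scrambled array were 26 of 30 genes with H4 (61% of all genes) and 25 with H3 (55.5%), while with H2 16 were above it (44%) and 14 below (56%). Median centring, quantile normalization and cyclic loess kept the sign of the medians over the enzymes and over the 30 genes. Of the 90 differences of single genes with single hairpins they turned 7, 5 and 4, each no larger than 0.028. Under median centring MVK, PMVK, SQLE, NR1H3 and FASN turned from below to above the scrambled array with H2, and TM7SF2 and FADS2 with H3. The H2 counts above and below it thus depend on the scaling.

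A difference was counted where the higher array was at least 25% above the lower, which then stood at 80% or less of it. With H4 12 of 30 genes were lower by this much, where 9.25% of all genes were, and 1 was higher (CH25H), where 2.97% were. The 12 were ACACA, ACAT2, CYP51A1, DHCR7, FADS1, FADS2, FASN, HMGCS1, INSIG1, LSS, MVK and SQLE. With H2 5 genes (CYP51A1, DHCR7, LSS, SCD and SREBF1) were higher by this much, against 5.42% of all genes, and 3 (CH25H, INSIG1 and INSIG2) lower, against 15.4%. With H3 4 genes (CH25H, FASN, HMGCS1 and MYLIP) were lower, against 5.91%, and 0 higher, against 3.58%. By at least 1.5-fold, CH25H and INSIG1 were lower with H2 (5.61% of all genes) and 0 genes higher (0.992%), CH25H was lower with H3 (1.14%) and 0 genes higher (0.528%), and FADS1 and FADS2 were lower (2.17%) and CH25H higher (0.608%) with H4. These counts compare 1 array with 1 array and carry no p-value, and the 3 comparisons share the scrambled array.

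**Figure D1:**
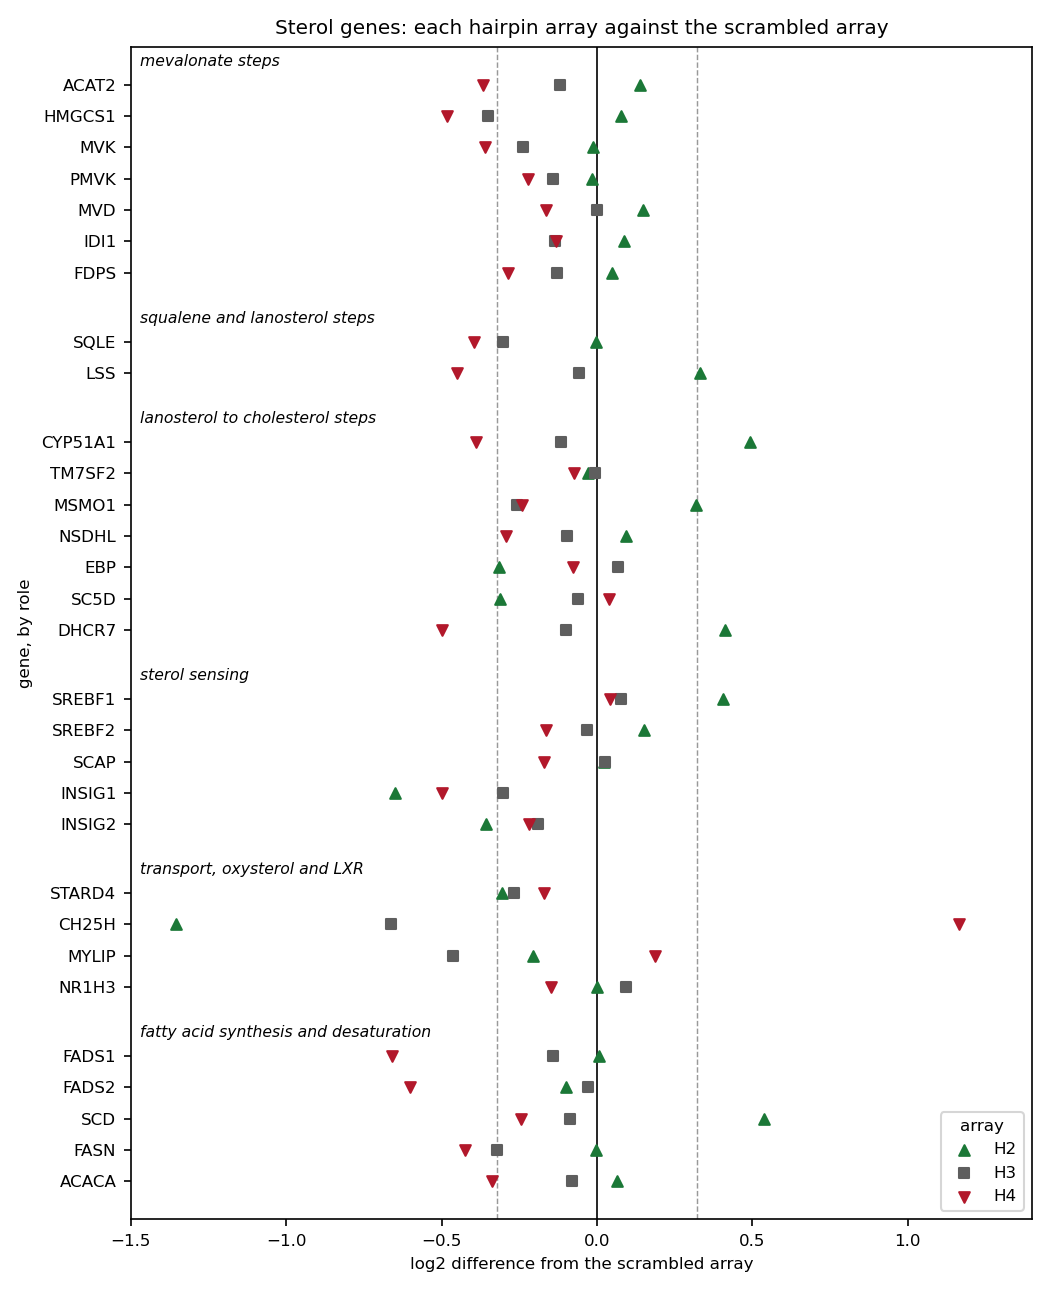
Log2 difference of each hairpin array (H2, H3, H4, 1 point each) from the scrambled array on the horizontal axis, for the 30 genes above the intensity filter, grouped by role on the vertical axis. Dashed lines mark the 25% limit, and most enzymes have H4 on the left of zero and H2 on the right. All 3 points lie on the left for INSIG1, INSIG2 and STARD4, and also for MVK, PMVK, SQLE, TM7SF2, FADS2 and FASN.

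The mean of the 3 hairpins hid this spread. In limma, fitted over all 13813 genes with the hairpins as replicates, 0 of 30 genes passed an adjusted p of 0.05 (0% of all genes), and the smallest adjusted p was 0.9998. At an unadjusted p under 0.05 there was 1 of 30, INSIG1, against 3.23% of all genes. Lower with all 3 hairpins were 9 of 30 genes, a share of 30.0% that is near the 30.6% of all genes. Higher with all 3 was SREBF1 alone, against 16.9% of all genes. Of the 9, only INSIG1, INSIG2 and STARD4 were still lower with all 3 hairpins under each of median centring (3 genes, with 23.3% of all genes lower), quantile normalization (4) and cyclic loess (5). The shares of all genes were 25.04% under quantile normalization and 26.5% under cyclic loess. Without H2, 22 of 30 genes were lower with both remaining hairpins, against 40.1% of all genes. The median of the mean differences was -0.11, against -0.035 over all genes. It was -0.21 without H2 and -0.032 without H4.

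Set directly against each other, without the scrambled array, the H4 array was below the H2 array at 23 of 30 genes, where 52.8% of all genes were. By the 25% limit it was lower at 16 genes, against 8.04% of all genes, and higher at 3 (CH25H, MYLIP and SC5D), against 11.3%. By at least 1.5-fold it was lower at 5 (CYP51A1, DHCR7, FADS1, LSS and SCD), against 1.87%, and higher at CH25H, against 4.07%. The median difference, H4 minus H2, was -0.34 over the 30 genes and -0.014 over all genes. This comparison was chosen after the values were seen and rests on 2 arrays. The H2 array was the highest of the 4 at 15 genes (28.9% of all genes), the H4 array the lowest at 20 (30.1%), and both held at 12 (11.8%). Above the scrambled array with H2 and below it with H3 and H4 were 13 genes (9.45%). The full order H2, scrambled, H3, H4 from high to low was found at 11 of 30 genes, against 5.07% of all genes. The 11 were ACACA, ACAT2, CYP51A1, DHCR7, FADS1, FDPS, HMGCS1, LSS, NSDHL, SCD and SREBF2. Of the 10 of these with a promoter window 8 held the NF-Y box, as did 12 of 17 of the other genes above the filter.

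**Figure D2:**
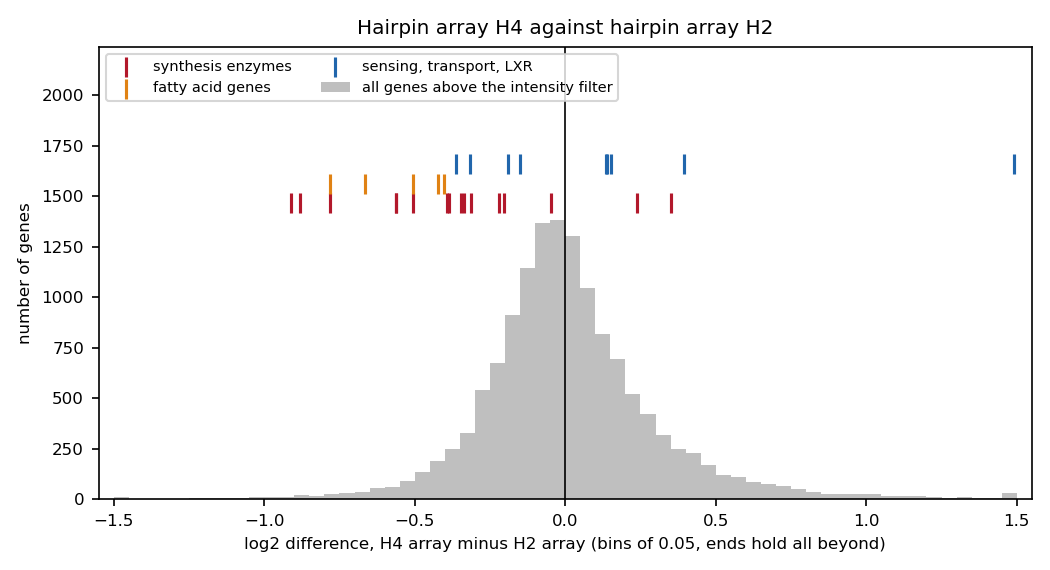
Number of genes (vertical axis) in bins of the log2 difference between the H4 and H2 arrays (horizontal axis) for all 13813 genes in grey, with a tick for each of the 30 sterol genes above. Synthesis enzymes (red) and fatty acid genes (orange) lie mostly left of zero, and the blue tick at the right edge is CH25H, drawn at the axis limit although its difference was 2.52.

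Among the mevalonate steps, HMGCS1, the synthase that joins acetoacetyl-CoA and acetyl-CoA into HMG-CoA, showed the lowest values with H4 of the 7 genes relative to the scrambled array. Its readings were 981, 729 and 665 with H2, H3 and H4 against 930 for the control. H2 was close to the scrambled array and H3 and H4 lay below both, at 78.3% and 71.5% of the control (mean log2 difference -0.25 ± 0.29, SD, n = 3 hairpins). ACAT2, the cytosolic thiolase that opens the route, gave 2714, 2271 and 1914 with H2, H3 and H4 against 2466 for the control. The order of the arrays was that of HMGCS1, from 110.1% of the scrambled level with H2 to 77.6% with H4.

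Mevalonate kinase (MVK) gave 480, 410 and 377 with H2, H3 and H4 against 484 for the control, and H2 was again nearest to the scrambled array. Phosphomevalonate kinase (PMVK) had the same order at 98.9%, 90.6% and 85.8%. Mevalonate diphosphate decarboxylase (MVD) stood at 110.7%, 100.1% and 89.2%, on both sides of the scrambled array. IDI1, which isomerises the first isoprenoid unit, stood at 106.2%, 91.1% and 91.2%, with no gap between H3 and H4. FDPS, which makes farnesyl diphosphate, stood at 103.4%, 91.4% and 81.9%, and it has processed pseudogenes, one of which, FDPSP2, is annotated on further probe sets, so its probes may read related sequence.

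The enzymes that oxidise squalene and close it to lanosterol showed the same order of hairpins. SQLE, squalene epoxidase, gave 2273, 1850 and 1732 with H2, H3 and H4 against 2279 for the control, and H4 stood at 76.0% of the scrambled level and H2 at 99.7%. LSS, lanosterol synthase, gave 1064, 813 and 619 with H2, H3 and H4 against 845 for the control. Its level with H2 was 125.9% and with H4 73.2% of the scrambled one, 1.72-fold apart, and its H4 minus H2 difference was at percentile 0.746 of all genes. The mean over the 3 hairpins was -0.06 ± 0.39 (SD, n = 3), which shows neither side.

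The widest spread between hairpins among the enzymes lay after lanosterol. DHCR7, which carries out the last reduction to cholesterol, gave 2757, 1931 and 1466 with H2, H3 and H4 against 2071 for the control. H2 was at 133.1% and H4 at 70.8% of the scrambled level, a 1.88-fold gap between hairpins, at percentile 0.420 of the H4 minus H2 differences of all genes. CYP51A1, lanosterol 14-alpha-demethylase, gave 1677, 1100 and 910 with H2, H3 and H4 against 1193 for the control. Its other probe set gave lower readings, 1024 on the scrambled array and 1188, 842 and 731 with the hairpins, and the order of the 4 arrays was the same on both. The 2 probe sets differed in the mean over hairpins, -0.005 for the brighter and -0.19 for the other.

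MSMO1, the sterol 4-methyl oxidase, gave 4488, 3006 and 3040 with H2, H3 and H4 against 3596 for the control, with H2 above and both others below. NSDHL, which works on the same methyl groups, stood at 106.8%, 93.6% and 81.6% of the scrambled level. TM7SF2, a sterol reductase, stood at 98.0%, 99.6% and 94.9%, the narrowest spread of the 30 genes. EBP and SC5D, which shift and add double bonds in the sterol rings, stood apart from the other enzymes. EBP gave 715, 932 and 843 with H2, H3 and H4 against 889 for the control, and SC5D gave 3789, 4514 and 4839 against 4707. On both the H2 array was the lowest of the 4, at 80.5% of the scrambled level.

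**Figure D3:**
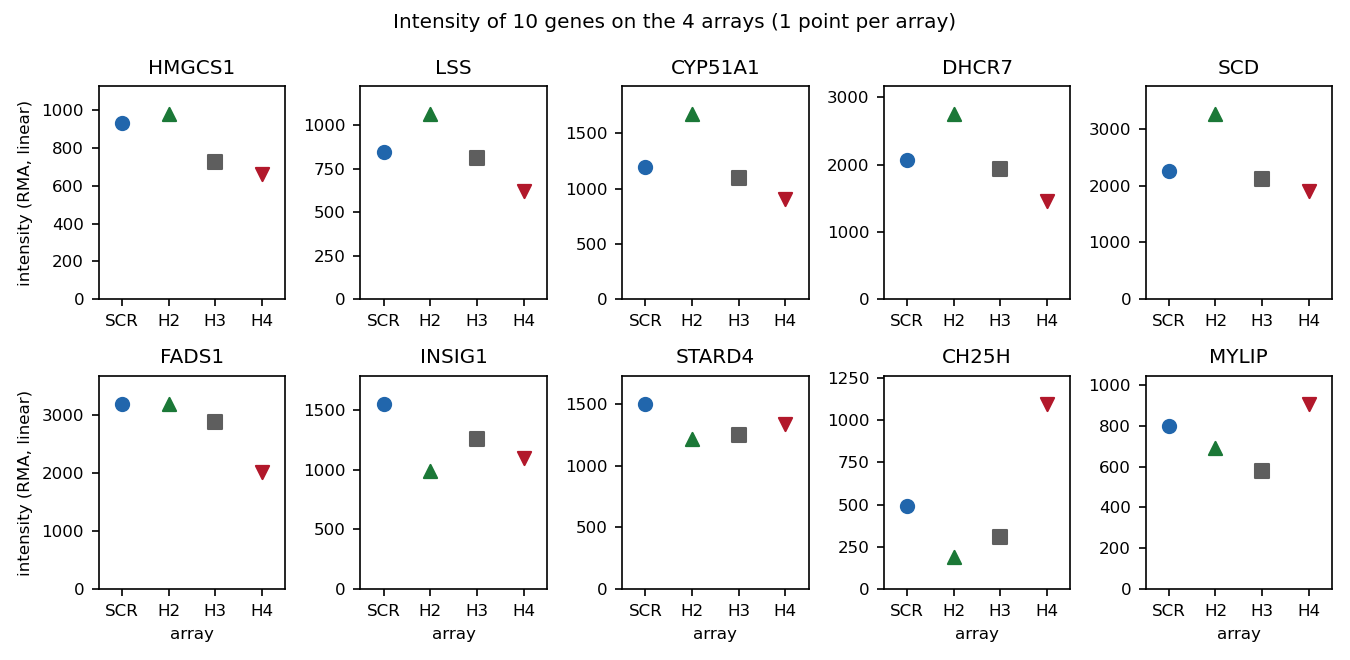
RMA intensity on a linear scale (vertical axis, from 0) on the scrambled (SCR), H2, H3 and H4 arrays (horizontal axis) for 10 genes, 1 point per array and no error bars because each array is single. The H2 point is the highest and the H4 point the lowest for HMGCS1, LSS, CYP51A1, DHCR7, SCD and FADS1, the scrambled point is the highest for INSIG1 and STARD4, and the H4 point is the highest for CH25H and MYLIP.

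The sensing genes divided into a pair that was lower with every hairpin and 3 that were not. INSIG1, itself a well-known SREBP target, gave 991, 1261 and 1101 with H2, H3 and H4 against 1554 for the control. All 3 hairpin arrays lay below the scrambled one, at 63.7%, 81.1% and 70.8% (mean log2 difference -0.48 ± 0.17, SD, n = 3; SE 0.18 and adjusted p = 0.9998 in limma). Its mean difference was lower than that of all but 2.59% of genes, and the smallest two-sided p that exact permutation of 4 arrays allows is 0.25. INSIG2, its close relative, gave 487, 547 and 536 with H2, H3 and H4 against 624 for the control, likewise with H2 the lowest and H3 the highest of the hairpins (-0.26 ± 0.090, SD, n = 3).

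The H2 array held the lowest INSIG1 reading and the highest readings of DHCR7, CYP51A1 and LSS, but also the lowest of EBP and SC5D. On the H4 array INSIG1 was below the scrambled array too, at 70.8%, and DHCR7, CYP51A1 and LSS were at their lowest. A link between the INSIG1 readings and those of the enzymes was not tested. SREBF2 gave 879, 774 and 706 with H2, H3 and H4 against 792 for the control, the order of arrays seen for DHCR7, CYP51A1 and LSS, from 111.1% to 89.2%. SREBF1, which encodes the SREBP-1 forms that favour fatty acid genes, gave 348, 277 and 270 with H2, H3 and H4 against 263 for the control. It was above the scrambled array on all 3, at 132.4% with H2, 105.5% with H3 and 102.9% with H4 (mean 0.17 ± 0.20). SCAP stood at 101.6%, 101.7% and 88.9%.

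The transport, oxysterol and LXR genes ran differently. CH25H, cholesterol 25-hydroxylase, had the largest difference of any of the 30 genes, and its hairpins lay far apart on both sides. Its readings were 192, 310 and 1098 with H2, H3 and H4 against 490 for the control, which is 39.1%, 63.2% and 224.1% of the scrambled level. Only 8 of 13813 genes had a higher H4 difference from the scrambled array. In the direct comparison the CH25H level with H4 was 573.3% of that with H2, a difference that 1 gene exceeded. Its mean of -0.28 ± 1.30 (SD, n = 3) turned to 0.25 without H2.

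CH25H is known as an interferon-stimulated gene, so a list of 10 interferon response genes is given beside it. Their median log2 difference came to -1.11 for H2, -0.43 for H3 and -0.46 for H4, and 8 of 10 were lower with all 3 hairpins and 1 (ISG15) higher. Their summed intensity was 5650 on the scrambled array and 2626, 4301 and 4198 with the hairpins. H2 was the lowest for CH25H and for the sum of this list, but H4 was above the scrambled array for CH25H and below it for the sum. The part of the interferon response in the CH25H readings was not tested.

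MYLIP, an LXR-induced ubiquitin ligase, gave 691, 578 and 908 with H2, H3 and H4 against 797 for the control. H4 was the only hairpin above the scrambled array, at 113.9%, and H3 was the lowest at 72.6%. ABCA1, the LXR-induced cholesterol exporter, was dim, with 93.7 on the scrambled array and 79.8, 71.2 and 101.5 with the hairpins. All 4 readings lie below the filter, so ABCA1 was not tested and no order is read from them. NR1H3, which encodes LXR-alpha, gave 115, 122 and 104 with H2, H3 and H4 against 115 for the control, close to the filter.

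STARD4, a soluble carrier that brings cholesterol to the endoplasmic reticulum, gave 1214, 1249 and 1333 with H2, H3 and H4 against 1501 for the control. It was lower with every hairpin by a similar amount (mean -0.25 ± 0.070, SD, n = 3; SE 0.14 in limma), and its spread between hairpins was the narrowest of the 30 genes after TM7SF2. On the H4 array 12 of the 16 enzymes were at their lowest, where 30.1% of all genes were, and CH25H, MYLIP and the enzyme SC5D were at their highest. With H3 14 of the 16 enzymes were below the scrambled array (55.5% of all genes), as were CH25H and MYLIP. A link between the enzyme readings and those of CH25H and MYLIP was not tested.

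The fatty acid genes, like most of the enzymes, were lowest with H4. All 5 were below the scrambled array with H3 and with H4 (FADS2 with H3, at 98.1%, turned above it under median centring), and all 5 were lowest on the H4 array, where 30.1% of all genes were. FADS1 and FADS2 encode the delta-5 and delta-6 desaturases of polyunsaturated fatty acids. FADS1 gave 3194, 2883 and 2016 with H2, H3 and H4 against 3181 for the control, and FADS2 gave 1934, 2031 and 1364 against 2071. On both genes only H4 lay far from the scrambled array, at 63.4% and 65.8%, and these were the 2 sterol genes at least 1.5-fold lower with H4, where 2.17% of all genes were.

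SCD, the delta-9 desaturase that makes oleate, gave 3267, 2122 and 1901 with H2, H3 and H4 against 2253 for the control. It had the highest H2 difference of the 30 genes, 145.0% of the scrambled level, and was 1.72-fold higher with H2 than with H4. FASN, fatty acid synthase, stood at 99.8%, 80.0% and 74.5%, and ACACA, the acetyl-CoA carboxylase before it, at 104.7%, 94.6% and 79.1%. Both had H4 as the lowest array.

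Further genes of the same pathways came from 6 lists of 70 genes, of which 60 had a probe set of their own and 56 were above the filter. With all 3 hairpins 26 of the 56 were lower and 5 higher, against the 30.6% and 16.9% of all genes. In limma 0 of 56 passed an adjusted p of 0.05, and 6 of 56 had an unadjusted p under 0.05, against 3.23% of all genes. Their median H4 minus H2 difference was -0.027, against -0.34 for the 30 genes above, and 4 of 56 had the order H2, scrambled, H3, H4, a share near the 5.07% of all genes.

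Of 5 other synthesis genes, 4 were lower with all 3 hairpins, against 30.6% of all genes. LBR, a sterol reductase of the nuclear envelope, gave 2906, 3151 and 3178 with H2, H3 and H4 against 3742 for the control, and SLC25A1, the mitochondrial citrate carrier, gave 883, 771 and 838 against 944. ERG28, a scaffold of the sterol demethylation enzymes, had a mean difference of -0.13, and ACAT1, the mitochondrial thiolase, of -0.15. The isoprenoid branch was divided, with 2 of 10 genes lower and 4 higher with all 3 hairpins, against 30.6% and 16.9%. DHDDS, which makes dolichol precursors, gave 3051, 3505 and 2882 with H2, H3 and H4 against 2402 for the control, the highest mean difference of the 56 (0.38 ± 0.15, SD, n = 3). PDSS2, of ubiquinone side chain synthesis, was next in this list at 0.16, and COQ2 and FNTA were the lowest at -0.19 and -0.095.

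Of 13 uptake and trafficking genes, 13 were below the scrambled array with H4, against 61% of all genes. With H2 8 were below it (56% of all genes), with H3 6 (55.5%) and with all 3 hairpins 5 (30.6%), shares nearer to those of all genes. LRP1, a large endocytic receptor, gave 349, 603 and 557 with H2, H3 and H4 against 702 for the control. NPC2, which hands cholesterol on within the lysosome, gave 3109, 3472 and 3549 against 4150. At the other end, GRAMD1B, a sterol transporter at membrane contacts, had a mean of 0.052 and SCARB1, the HDL receptor, of -0.012, with 379, 360 and 257 against 330 on the scrambled array. On SCARB1 only H4 was below the scrambled array.

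Of 10 genes of SREBP processing and protein degradation, 4 were lower and 1 higher with all 3 hairpins, against 30.6% and 16.9%. MBTPS2, the site-2 protease that releases SREBP, gave 1036, 1164 and 1056 with H2, H3 and H4 against 1457 for the control (mean -0.43 ± 0.090, SD, n = 3). FBXW7, which marks nuclear SREBP for degradation, followed at -0.15, and the highest were FAF2 at 0.093 and ERLIN1 at -0.008. FAF2 was the 1 gene higher with all 3 hairpins. It was read from the brighter of its 2 probe sets, at 20639 on the scrambled array, far above every other gene of this list. Of 5 genes of esterification, oxysterols and efflux, SOAT1, which esterifies cholesterol, gave 1608, 1787 and 1615 with H2, H3 and H4 against 2126 for the control, and CYP7B1, an oxysterol hydroxylase, had a mean of -0.16. ABCA2 and APOE were at 0.031 and -0.032.

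Of 13 other fatty acid genes, 8 were lower with all 3 hairpins, against 30.6% of all genes, and 0 were higher, against 16.9%. With H4 13 were below the scrambled array, against 61% of all genes. ACSS2, the cytosolic acetyl-CoA synthetase and a known SREBP target, had the lowest mean of the 56 genes. It gave 213, 186 and 190 with H2, H3 and H4 against 306 for the control (mean -0.64 ± 0.10, SD, n = 3; adjusted p = 0.9998 in limma), so that the hairpin arrays lay close together and well below the scrambled one. MID1IP1, which activates acetyl-CoA carboxylase, gave 437, 555 and 507 against 737 (mean -0.57). ELOVL5, a fatty acid elongase, and LPCAT3, a phospholipid acyltransferase, were the highest at 0.001 and -0.033.

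**Figure D4:**
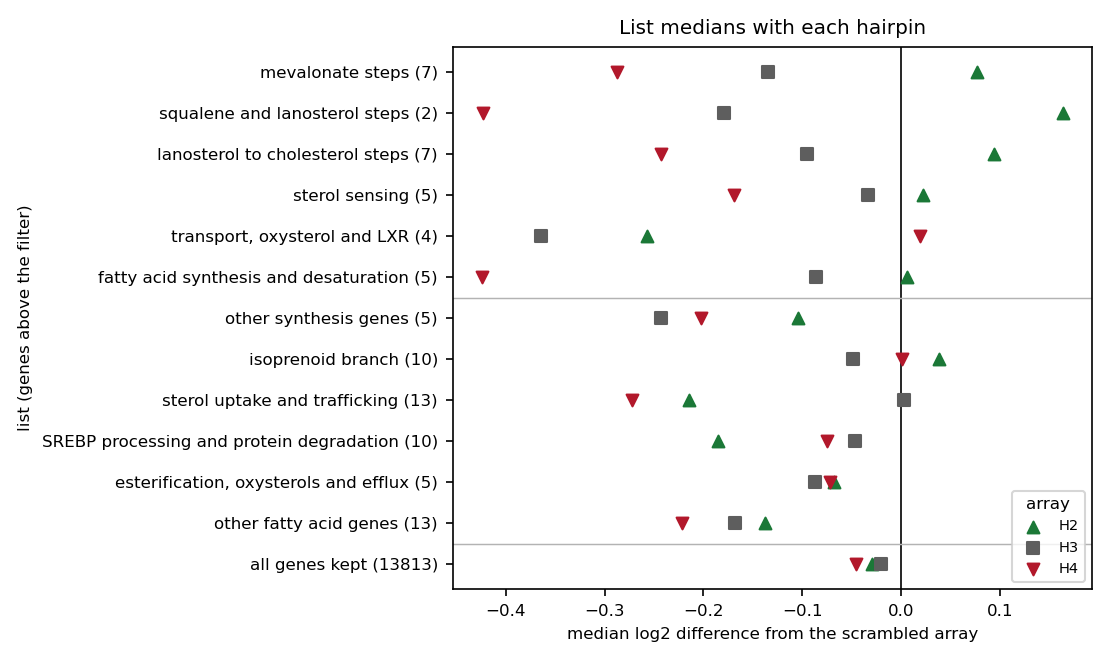
Median log2 difference from the scrambled array (horizontal axis) with H2, H3 and H4 for each list (vertical axis, number of genes above the filter in brackets), with the 30 sterol genes by role at the top, the further lists in the middle and all genes at the bottom. H2 is right of zero and H4 furthest left in the 3 lists of synthesis steps and in those of sterol sensing and of fatty acid synthesis and desaturation, but not in the other lists shown.

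Cell state lists are given beside these results. For 8 proliferation genes the median was -0.17 for H2, -0.063 for H3 and -0.015 for H4, and the summed intensity was 29592, 30966 and 31428 against 32405 for the control. All 3 hairpins were below the control at 5 of these 8 genes (30.6% of all genes) and above it at 1 (16.9%). A list of 8 endoplasmic reticulum stress genes had medians of -0.012, 0.044 and -0.14, with sums of 16263, 17224 and 15309 against 16486. For this list all 3 hairpins were below the control at 2 of 8 genes and above it at 1, shares near the 30.6% and 16.9% of all genes. The medians of the stress list and of the enzymes were both lowest with H4, and that of the proliferation list was not. The stress list was divided with H4, with 5 of 8 genes below the scrambled array (61% of all genes) and 3 above it (HERPUD1, SDF2L1 and DNAJB9). The part of these cell states in the sterol gene readings was not tested.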

How the data were processed

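RNA of 4 DAOY samples was read on 1 whole-transcript array each. The deposited values are intensities per probe set, which per the submitters' processing notes the authors computed by RMA. The version, the settings and the genome build of the probes are not stated in these sources. Such scaling between arrays can hide a shift common to all genes. The values are linear, so log2 was taken. Of 33297 probe sets, 19460 carry exactly 1 symbol in the platform annotation, 1754 several and 12083 none. The brightest probe set was kept per gene (18417 genes), and genes under the 25th percentile of mean log2 intensity were left out (13813 kept).

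The hairpins were set against the scrambled array with limma 3.58.1 (R 4.3.3; lmFit, eBayes with an intensity trend, Benjamini-Hochberg over all genes kept), with 2 residual degrees of freedom. The fit takes the single control to vary as the hairpins do. Single hairpins got values only. The fit was also run on simulated data in which every array, the control included, was given the spread of the hairpins. Such data cannot test whether the single control varies as the hairpins do. Median centring, quantile normalization, cyclic loess, other filters, a mean over probe sets, log2 of intensity plus 16, other settings of eBayes and leaving out each hairpin were tried as alternatives. The number of arrays limits the precision.

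ZFX and all sterol genes are named, and of each further list the genes with the 2 highest and 2 lowest mean differences. ISG15, SERPINA1 and APOA1 were named after their values were seen. The genes and lists were chosen with earlier results of these data known. The H4 against H2 comparison, the order of arrays and the synthesis enzyme list were added after seeing the data. Promoters came from RefSeq, GRCh38.p14. Figures used matplotlib 3.10.9 in Python 3.11.15.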

Additional observations from a re-analysis of the deposited data

How the results depend on the processing

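Of 296 values of single genes under the alternatives, 272 kept the sign of the mean difference, and 19 of 30 genes kept it under all of them. With median centring the sign turned for MVD (0.026), CYP51A1 (0.027), SREBF2 (0.017) and NR1H3 (0.013). With quantile normalization it turned for MVD (0.039), CYP51A1 (0.025), SREBF2 (0.038) and SCAP (0.016), and with cyclic loess for MVD (0.023), CYP51A1 (0.023) and SREBF2 (0.018). The median of all genes turned with H3 under centring (0.0095) and with H2 under quantile normalization (0.0023). The count of genes lower with all 3 hairpins was 3, 4 and 5 of 30 under these scalings, below the 23.3%, 25.04% and 26.5% of all genes, and 22, 11 and 12 without H2, H3 and H4 (40.1%, 40.6% and 39.4% of all genes), where fewer arrays had to pass. The count of genes higher with all 3 ranged from 1 to 3 when a hairpin was left out and was 0 with only the brighter 50% of genes. The count with an unadjusted p under 0.05 was 0 under centring and ranged from 1 to 2 without a hairpin. Leaving out each hairpin gave mean differences from -1.01 to 0.25 for CH25H, -0.17 to 0.22 for SCD, -0.25 to 0.19 for CYP51A1, -0.25 to 0.038 for MSMO1, -0.24 to 0.010 for ACAT2, -0.082 to 0.074 for MVD, -0.25 to 0.14 for LSS, -0.30 to 0.16 for DHCR7, -0.099 to 0.059 for SREBF2, -0.073 to 0.024 for SCAP and -0.075 to 0.046 for NR1H3. Except where fewer arrays had to pass, the cause was not tested. The H4 against H2 comparison kept its direction under each scaling, filter, probe set rule and log setting tried, with 19 to 23 genes lower and medians from -0.37 to -0.32. That comparison, the order of arrays and the medians over the synthesis enzymes were chosen after seeing the data. Limma called 0 genes under every alternative, with 248 to 691 genes at an unadjusted p under 0.05. No paired analysis was possible because the labels give no replicate numbers and the control has 1 array.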
